A study of Mus musculus with 6 samples.

Results

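The 32 genes described here are autism and neurodevelopmental risk genes taken from a fixed list of symbols and matched by gene name in the count table, which holds 54532 genes. All 32 were found once each, and all are annotated as protein coding. Ash1l, itself a risk gene and the gene altered in these mice, was left out of the list. RNA was sequenced from dorsal root ganglia, which hold the cell bodies of the neurons of touch, pain and body position, in Ash1l+/- mice and wild-type (WT) littermates. There were 3 libraries of each genotype, and values are listed in the order of replicates 1, 2 and 3. The sources used here do not give the structure of the Ash1l allele, the age or sex of the mice, or whether ganglia of several animals were pooled. No label ties a library to an animal of its own, so the tests measure the spread between these libraries, which may be technical.

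Risk genes for autism fall into a few broad classes. Many encode proteins that read, write or remodel chromatin, or transcription factors that set neuronal identity during development. Others encode scaffolds and adhesion molecules of the synapse, and a smaller class controls protein turnover and translation. For many of them loss of a single copy is enough to cause disease, so the amount of message per cell is itself of interest. Sensory ganglia lack the synaptic circuits of the brain, yet sensory neurons express many of these genes, and several autism mouse models show altered touch.

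Total counts per library ran from 17209294 to 20545722. WT replicate 2 stood apart. Across genes, which are not independent, its log2 CPM (counts scaled to library size) had correlations of 0.846 to 0.877 with the rest, against at least 0.981 between any other pair. Markers of sensory neurons were present in every library, with a summed level of 8561 to 9127 CPM in the 5 similar libraries and 12550 CPM in WT replicate 2, and none of the 12 was at 0 in all libraries. Skeletal muscle markers summed to 35.0 CPM in WT replicate 2 and to 2.11 to 3.84 CPM elsewhere. Erythrocyte markers summed to 628 CPM in it and to 31.5 to 101 CPM elsewhere. Counts of calls are therefore given for all 6 libraries and for the 5 without WT replicate 2, and fold changes are those of the 5 unless 6 are named. CPM are scaled by trimmed mean of M-values (TMM) factors, and fold changes compare Ash1l+/- with WT.

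Without WT replicate 2, 9 of the 31 tested risk genes rose in Ash1l+/- ganglia, by 1.20-fold to 1.34-fold, and none fell. They were Naa15, Tcf20, Chd2, Fmr1, Tcf4, Cul3, Myt1l, Cntnap2 and Trip12. Over all genes 9.39% were called higher and 10.4% lower, 19.8% in all, in the same test, edgeR's quasi-likelihood test with a Benjamini-Hochberg adjusted p under 0.05 over 16395 genes. The median log2 fold change was 0.21 over the 31 risk genes and 0.00 over all genes tested. With all 6 libraries edgeR called none of the risk genes and 0% of 16032 genes, and the smallest adjusted p among risk genes was 0.385. With 6 libraries the 9 genes had log2 fold changes from 0.29 for Tcf4 to 0.75 for Tcf20. Among them Fmr1 was at 0.65, Myt1l at 0.55, Cul3 at 0.50 and Trip12 at 0.40. The median over the 31 was 0.33, against -0.00 over all genes and 0.31 over the longest quartile by exon length. At an unadjusted p under 0.05 the 5 libraries gave 14 risk genes higher and 1 lower, against 16.3% and 16.9% of all genes. At that threshold the 6 libraries gave 2 risk genes higher, Naa15 and Chd2, and 0 lower, against 3.22% and 7.4% of all genes. DESeq2 called 0 of 32 risk genes and 0.0105% of all genes with 6 libraries, and the same 9 of 30 risk genes as edgeR, all higher, with 5, against 10.7% of all genes. Tbr1 did not pass the filter on low counts in either comparison.

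The risk genes are long, and long genes differed between these libraries. Exon length per gene, the length column of the deposited table, ranged from 4873 bases for Cul3 to 27382 bases for Tcf4, with a median of 13.5 kb against 3.42 kb over protein-coding genes. All 32 were above that protein-coding median. Counting introns they are long as well, with a median span of 117 kb against 17.2 kb, and 18 of the 32 span more than 100 kb. In the 5 libraries, 22.6% of all tested genes in the longest quartile of exon length (above 6419 bases) were called higher and 3.03% lower, against 3.88% and 15% in the shortest quartile (up to 2440 bases). Of the 31 tested risk genes, 27 lie in the longest quartile, and 8 of these, or 29.6%, were called higher. The median log2 fold change there was 0.21 for the risk genes and 0.14 for all genes of the quartile. The other 4 tested risk genes lie in the next quartile, where Cul3 was called and where 6.95% of all genes were higher. Across all tested genes the log2 fold change had a Spearman correlation of 0.28 with exon length and of -0.55 with transcript GC, the share of G and C in a gene's longest transcript, over genes of the same 5 libraries.

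**Figure D1:**
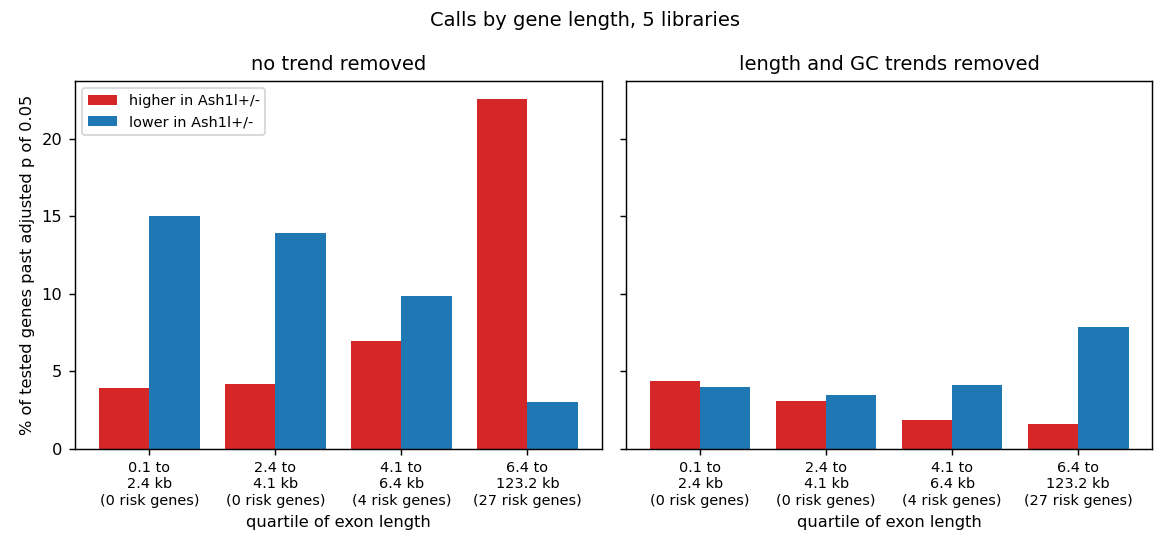
Share of all tested genes called higher (red) or lower (blue) in Ash1l+/- with 5 libraries, in percent, by quartile of exon length, without (left) and with (right) removal of length and GC trends; no error bar applies to these counts. Before removal 22.6% of the longest quartile, which holds 27 risk genes, was higher and 3.03% lower. After it 1.56% was higher and 7.86% lower.

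When the trend with exon length was removed from each of the 5 libraries, 3 risk genes rose, Tcf20, Cul3 and Fmr1, and 1 fell, Shank3. Over all genes 5.49% were then called higher and 8.94% lower. With the trend in transcript GC removed as well, Tcf20 alone rose and none fell, against 2.71% and 4.84% of all genes. This second step did not keep the fold changes free of length. Over all tested genes their Spearman correlation with exon length was 0.03 after the first step and -0.11 after both. In the longest quartile 1.56% of genes were then higher and 7.86% lower, with a median log2 fold change of -0.05. The median log2 fold change of the 31 risk genes went from 0.21 to -0.00 and then to -0.02. Risk genes called in the 5 libraries had a median transcript GC of 43.6%, against 49.4% for those tested and not called, while their median exon lengths were 14.0 and 13.5 kb. Within the 31 risk genes the log2 fold change had a Spearman correlation of -0.58 with transcript GC, of 0.14 with exon length and of 0.32 with genomic span, over genes that share the same libraries. What these trends stem from was not tested.

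**Figure D2:**
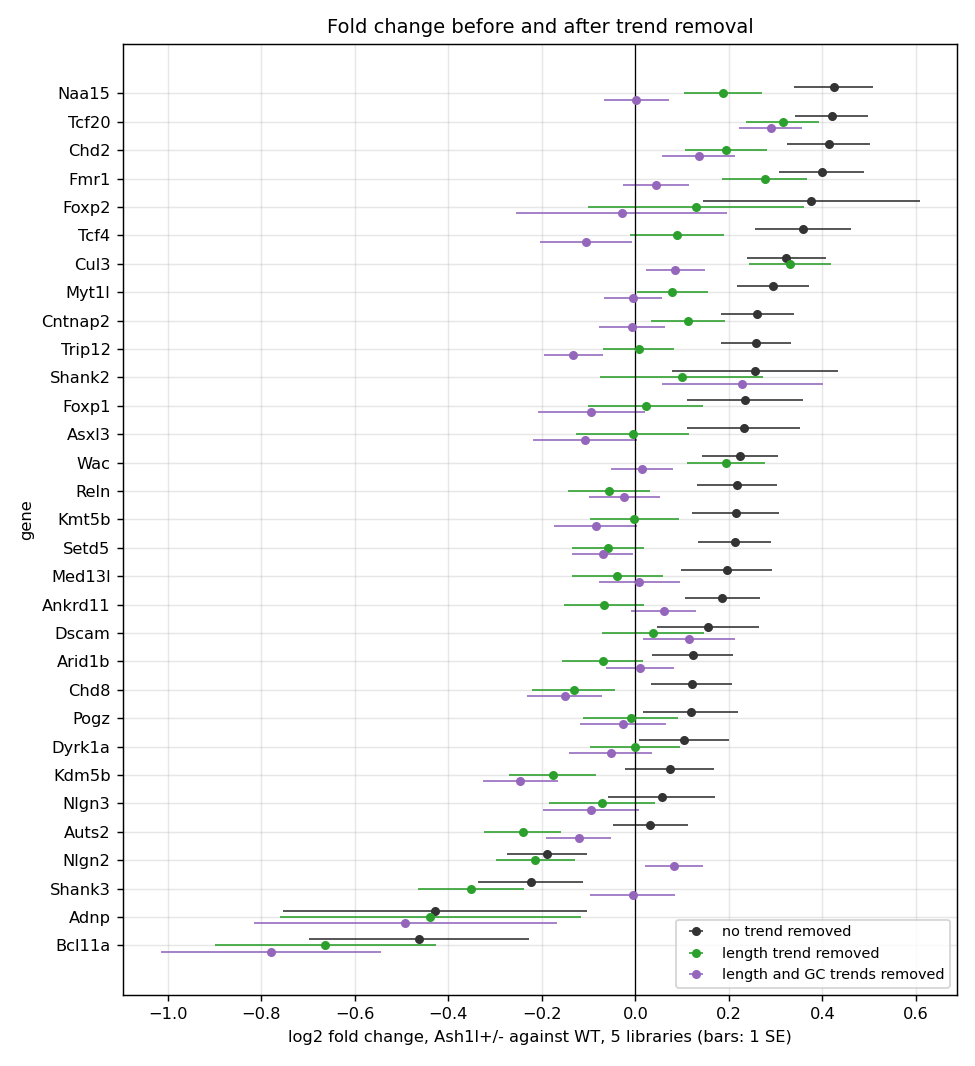
Log2 fold change of Ash1l+/- against WT for the 31 tested risk genes with 5 libraries, with no trend removed (black), with the length trend removed (green) and with length and GC trends removed (purple); bars are 1 SE. Tcf20 stays at 0.29 after both removals, while Naa15 goes from 0.42 to 0.00.

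Promoter sequences were looked up for the 32 genes in RefSeq on GRCm38.p6, and 24 genes matched with 35 annotated starts. The windows of 250 bases before each start are shown for the genes that rose in the 5 libraries and whose window holds no exon base of the same gene. For Fmr1, Cntnap2 and Myt1l, which have several starts, the most upstream window is shown. The Tcf20 and Cntnap2 windows lie in introns of the longer gene models of GENCODE M21, and the Cul3, Fmr1 and Myt1l windows lie upstream of theirs. Capitals mark the GC box, GGGCGG on either strand, a short motif bound by Sp1-family factors; every window is written 5′ to 3′ on the strand of its gene.
Tcf20, chr15:82912135-82912384, minus strand: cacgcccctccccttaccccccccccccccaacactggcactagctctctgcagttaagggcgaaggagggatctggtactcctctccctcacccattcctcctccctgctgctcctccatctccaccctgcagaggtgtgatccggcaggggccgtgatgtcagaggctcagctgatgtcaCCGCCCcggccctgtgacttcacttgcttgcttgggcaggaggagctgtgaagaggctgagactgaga
Fmr1, chrX:68678291-68678540, plus strand: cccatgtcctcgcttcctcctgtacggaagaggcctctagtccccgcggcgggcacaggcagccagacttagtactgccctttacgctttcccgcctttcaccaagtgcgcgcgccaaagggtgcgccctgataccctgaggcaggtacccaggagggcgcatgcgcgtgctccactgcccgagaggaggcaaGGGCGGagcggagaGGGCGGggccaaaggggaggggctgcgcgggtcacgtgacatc
Cul3, chr1:80340691-80340940, minus strand: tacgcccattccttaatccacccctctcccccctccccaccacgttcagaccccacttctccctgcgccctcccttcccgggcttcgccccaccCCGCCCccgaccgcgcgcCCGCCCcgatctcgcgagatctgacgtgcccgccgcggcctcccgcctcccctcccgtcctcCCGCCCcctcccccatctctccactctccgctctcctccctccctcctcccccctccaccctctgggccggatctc
Cntnap2, chr6:45059811-45060060, plus strand: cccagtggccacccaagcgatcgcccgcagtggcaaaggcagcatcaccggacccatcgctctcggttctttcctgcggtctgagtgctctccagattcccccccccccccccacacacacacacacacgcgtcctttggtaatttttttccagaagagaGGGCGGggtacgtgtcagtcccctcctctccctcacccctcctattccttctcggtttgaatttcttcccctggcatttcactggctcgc
Myt1l, chr12:29528134-29528383, plus strand: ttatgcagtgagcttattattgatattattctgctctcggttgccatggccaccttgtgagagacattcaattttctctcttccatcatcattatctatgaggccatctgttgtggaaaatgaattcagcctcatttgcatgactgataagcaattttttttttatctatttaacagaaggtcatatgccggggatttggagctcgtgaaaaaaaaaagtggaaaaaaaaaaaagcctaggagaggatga
The Cul3 and Fmr1 windows are rich in CpG, with 23 and 21 CpG pairs, and hold 3 and 2 GC boxes. The Tcf20 window has 6 CpG pairs and 1 GC box, and the Myt1l window has 3 CpG pairs and no GC box. Across the 35 risk gene windows 68.6% held a GC box, against 32.7% of 32851 windows of the same length over all annotated starts. The wider set, from 27025 genes, was not matched to the risk genes in gene type or level. Many of the 35 windows hold exon bases of the same gene, and those of Naa15, Tbr1 and some of Myt1l are exon over all 250 bases. The median number of CpG pairs was 16 in risk gene windows and 6 over all. The TATA box letters TATAAA, on either strand, were in 0 of the 35 windows and in 12.4% of all windows. The ETS motif CCGGAAG, on either strand, was in 2 of the 35, those of Dscam and Reln, and in 6.91% of all. None of the 3 motifs contains another, and several windows of 1 gene overlap, so they are not independent.

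The levels of the risk genes per length spanned from listed zeros to about 40 FPKM, the authors' read values scaled to exon length and library size. Of the 32, 6 had a mean above 10 FPKM, 20 between 1 and 10, and 6 below 1. The last group includes Adnp, whose level is uncertain because another gene overlaps it. Cul3 was highest, at 28.0, 19.1 and 30.8 FPKM in WT and 33.2, 37.2 and 40.1 FPKM in Ash1l+/-. Nlgn2 was next by mean, at 26.8, 14.4 and 25.2 FPKM in WT and 25.6, 21.7 and 21.2 FPKM in Ash1l+/-. Cntnap2 was at 19.8, 15.6 and 21.2 FPKM in WT and 25.4, 22.7 and 25.7 FPKM in Ash1l+/-, so that the ranges of Nlgn2 and Cntnap2 overlap. At the low end, Foxp2 ran from 0.172 to 0.347 FPKM and Bcl11a from 0.187 to 0.406 FPKM. Tbr1, a transcription factor of cortical projection neurons, had 0, 1 and 1 reads in WT and 2, 0 and 0 in Ash1l+/-, too few for a fold change.

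**Figure D3:**
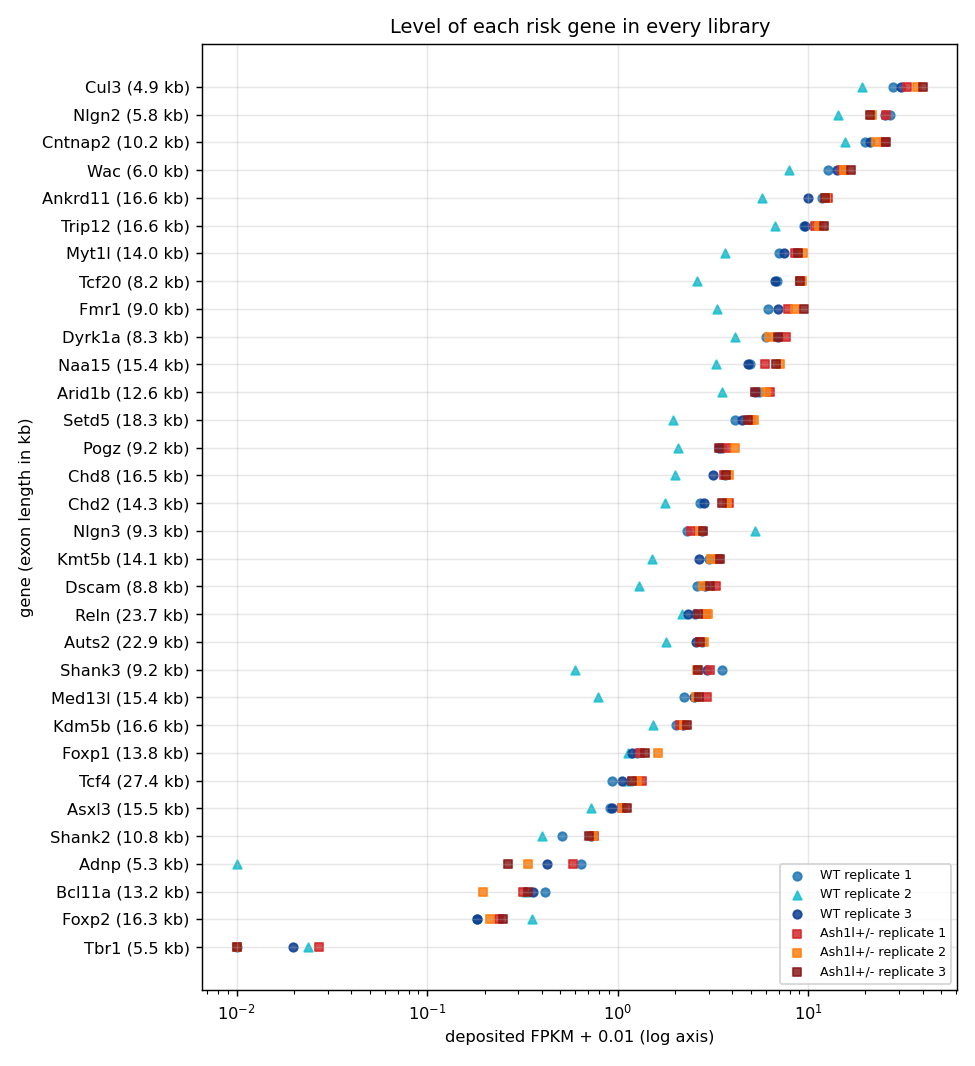
Deposited FPKM plus 0.01 on a log axis for each of the 32 risk genes, ordered by mean over 6 libraries, with exon length in kb beside the name; each point is 1 library, circles and the triangle WT, squares Ash1l+/-. Cul3 is highest, Tbr1 is at or near 0, and WT replicate 2 (triangle) lies left of the other libraries for most genes.

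WT replicate 2 differed from the other wild types in most of these genes. It was lower than the mean of WT replicates 1 and 3 in 28 of the 31 tested risk genes, against 52.1% of all tested genes. Over all tested genes its log2 difference from that mean had a Spearman correlation of -0.39 with exon length. Within the 31 risk genes, most of them long, that correlation was 0.38. The median log2 difference was -0.63 over the risk genes and -0.06 over all genes. The lowest were Adnp at -2.68, Shank3 at -2.34 and Med13l at -1.56, and the 3 that were higher were Nlgn3 at 1.06, Foxp2 at 0.91 and Tcf4 at 0.20. Adnp had 0 reads in WT replicate 2, so its value rests on the 0.5 CPM added before the log. Every Ash1l+/- library was above every WT library in 17 of 31 risk genes, and below in none, against 19.3% and 19.2% of all genes. Without WT replicate 2 the counts were 18 above and 1 below (Bcl11a), against 23.9% and 25.3% of all genes. These shares are over genes of every length, not over long genes alone. All 9 genes called in the 5 libraries are among the 17.

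**Figure D4:**
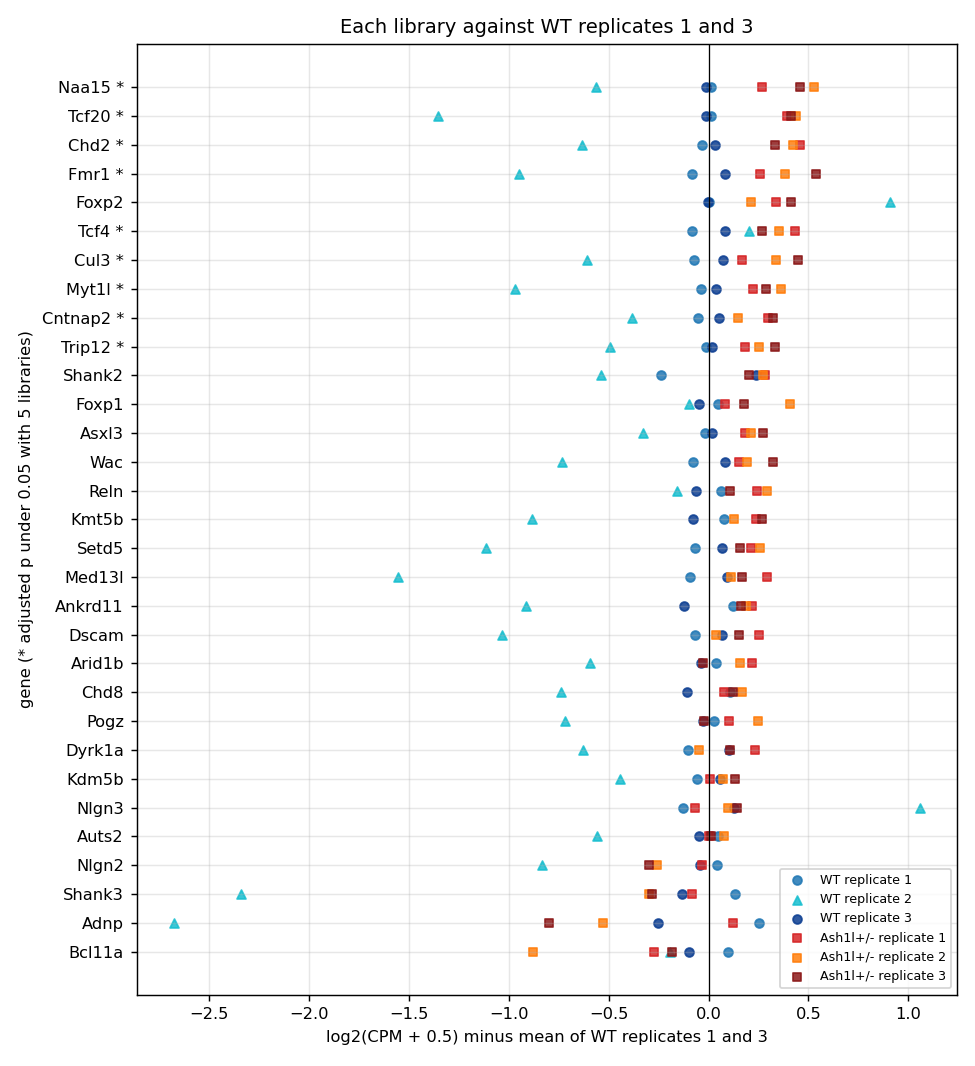
Difference of log2(CPM + 0.5) in each library from the mean of WT replicates 1 and 3, for the 31 tested risk genes; circles are those 2 libraries, the triangle is WT replicate 2, squares are Ash1l+/-, and an asterisk marks an adjusted p under 0.05 with 5 libraries. The triangle lies left of 0 for 28 genes, and squares lie right of both circles for 18.

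Among 5 genes of chromatin remodelling, 1 rose in the 5 libraries and 4 did not pass, against 9.39% of all genes and 22.6% of the longest quartile higher. Chd2, a chromodomain remodelling ATPase linked to epilepsy and autism, was the one that rose. It was at 37.9, 24.9 and 39.8 CPM in WT and 53.5, 52.2 and 49.1 CPM in Ash1l+/-, with no overlap between groups. The difference on the log2 scale was 0.41 (SE 0.09, adjusted p = 0.00333 in edgeR) with 5 libraries and 0.59 (SE 0.21, adjusted p = 0.385 in edgeR) with 6. It was 0.14 (adjusted p = 0.337 in edgeR) after removal of both trends. Chd2 (exon length 14300 bases, chromosome 7 from 73426638 to 73541830, minus strand, GRCm38) shares 18.4% of its exon bases with the non-coding gene 1810026B05Rik on the same strand. That neighbour was at 13.0, 36.2 and 11.3 CPM in WT and 11.5, 12.1 and 10.9 CPM in Ash1l+/-.

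Chd8, the chromodomain remodeller that is among the genes most often mutated in autism (16523 bases), did not pass, at 59.0, 32.6 and 50.9 CPM in WT and 57.8, 61.6 and 59.7 CPM in Ash1l+/-. Its log2 fold change was 0.12 (SE 0.09) with 5 libraries. Arid1b, a subunit of the BAF complex (12600 bases), and Pogz, a zinc finger protein that binds heterochromatin protein 1 (9218 bases), each had a log2 fold change of 0.12 with 5 libraries and did not pass. Adnp, a homeodomain protein that works with a remodeller at heterochromatin (5350 bases), had few reads, 67, 0 and 42 in WT and 65, 32 and 24 in Ash1l+/-. In GENCODE M21, 82.1% of its exon bases are also annotated to the overlapping gene Gm20716, which had 3 reads in WT replicate 1 and 0 in every other library. Reads on bases of both genes cannot be assigned to 1 of them by position, so the level of Adnp is uncertain. Adnp did not pass, with log2 fold changes of 0.11 (SE 1.05) for 6 libraries and -0.43 (SE 0.33) for 5.

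None of the 7 genes of histone modification and its adaptors passed in the 5 libraries. Over all genes 9.39% were called higher and 10.4% lower, and in the longest quartile 22.6% and 3.03%. The median log2 fold change over all genes of that quartile was 0.14. All 7 genes had fold changes above 1. Their log2 fold changes ran from 0.03 for Auts2, a subunit of a Polycomb-related complex (22890 bases), to 0.23 for Asxl3, a cofactor of histone H2A deubiquitination (15533 bases), with a median of 0.21. Wac, an adaptor for histone H2B ubiquitination (5962 bases), was nearest to the threshold, with an adjusted p of 0.059 in edgeR. It was at 74.0, 46.8 and 82.8 CPM in WT and 87.1, 89.5 and 97.9 CPM in Ash1l+/-, again without overlap. Setd5, a SET domain protein (18347 bases), was at 73.7, 35.4 and 81.1 CPM in WT and 89.6, 92.6 and 86.4 CPM in Ash1l+/- (adjusted p = 0.0627 in edgeR). Kmt5b, which methylates histone H4 lysine 20 (14116 bases), and Ankrd11, which recruits histone deacetylases (16580 bases), had log2 fold changes of 0.21 and 0.19. Kdm5b, a demethylase of histone H3 lysine 4 (16555 bases), was at 0.07. With both trends removed the 7 ran from -0.25 for Kdm5b to 0.06 for Ankrd11, with a median of -0.08 and none past the threshold.

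Of the 7 tested transcription factors and co-regulators, 3 rose in the 5 libraries and 4 did not pass. Over all genes 9.39% were called higher, and 22.6% of the longest quartile. Tcf20, a nuclear co-regulator related to Rai1, was at 55.3, 21.1 and 54.3 CPM in WT and 72.2, 74.5 and 73.1 CPM in Ash1l+/-. The Ash1l+/- libraries differed by little, 73.3 ± 1.17 CPM (SD, n = 3), and all lay above every WT library. Its log2 fold change came to 0.42 (SE 0.08, adjusted p = 0.00128 in edgeR) with 5 libraries and 0.75 (SE 0.37, adjusted p = 0.385 in edgeR) with 6, where it was the highest of the 31 tested genes of the set. Tcf20 also passed with the length trend removed (0.31, adjusted p = 0.0117 in edgeR) and with both trends removed (0.29, adjusted p = 0.0122). Its log2 fold change was 0.40 to 0.43 over the 5 fits that left out 1 more library. Tcf20 has an exon length of 8245 bases, below the risk gene median, and occupies chromosome 15 between 82808436 and 82987872, minus strand.

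Tcf4, a basic helix-loop-helix factor that is mutated in Pitt-Hopkins syndrome, has the longest exon length of the set, 27382 bases. It was at 24.8, 30.3 and 27.8 CPM in WT and 35.7, 33.6 and 31.7 CPM in Ash1l+/-, and WT replicate 2 was the highest wild type here. Tcf4 rose by 0.36 on the log2 scale (SE 0.10, adjusted p = 0.0188 in edgeR) with 5 libraries, and the value was -0.11 (adjusted p = 0.584) after removal of both trends. Myt1l, a zinc finger factor that represses non-neuronal genes in neurons (14018 bases), was at 96.9, 50.7 and 102 CPM in WT and 116, 128 and 122 CPM in Ash1l+/-. The rise, 0.29 on the log2 scale (SE 0.08, adjusted p = 0.0109 in edgeR), went to -0.01 with both trends removed.

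Bcl11a, a zinc finger factor of sensory and cortical neurons (13175 bases), had the lowest log2 fold change of the set in both comparisons, -0.40 (SE 0.28) with 6 libraries and -0.46 (SE 0.23, adjusted p = 0.176 in edgeR) with 5. It was at 5.24, 4.18 and 4.51 CPM in WT and 3.94, 2.41 and 4.23 CPM in Ash1l+/-. The groups overlap only through WT replicate 2. With both trends removed the value was -0.78 (adjusted p = 0.0502 in edgeR), just short of the threshold. Foxp2, a forkhead factor known for its part in speech (16346 bases), was at 2.77, 5.60 and 2.75 CPM in WT and 3.62, 3.27 and 3.84 CPM in Ash1l+/-, so its direction turned with WT replicate 2, from -0.04 with 6 libraries to 0.38 (adjusted p = 0.268 in edgeR) with 5. Foxp1, its paralog (13751 bases), and Med13l, a subunit of the Mediator kinase module (15427 bases), had log2 fold changes of 0.23 and 0.20 and did not pass. Med13l was at 11.8 CPM in WT replicate 2 against 33.4 to 43.8 CPM in the other 5 libraries.

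Of the 5 genes of protein turnover, kinase signalling and translation, 4 rose in the 5 libraries, against 9.39% of all genes and 22.6% of the longest quartile. With both trends removed none of the 5 passed and their median log2 fold change was 0.00. Naa15, the auxiliary subunit of an N-terminal acetyltransferase at the ribosome (15427 bases, chromosome 3 from 51415148 to 51476507), was at 74.7, 49.9 and 73.3 CPM in WT and 89.1, 107 and 102 CPM in Ash1l+/-. The rise, 0.42 on the log2 scale (SE 0.08, adjusted p = 0.00204 in edgeR), went to 0.00 with both trends removed. Fmr1, which encodes the RNA-binding translational repressor FMRP and is silenced in fragile X syndrome (8966 bases, X chromosome from 68678541 to 68717963), was at 54.1, 29.5 and 60.8 CPM in WT and 68.6, 74.9 and 83.4 CPM in Ash1l+/-. Fmr1 rose by 0.40 on the log2 scale (SE 0.09, adjusted p = 0.00484 in edgeR), 0.28 with the length trend removed (adjusted p = 0.0453) and 0.04 with both removed (adjusted p = 0.777).

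Cul3, the scaffold of a ubiquitin ligase family, has the shortest exon length of the set and the lowest transcript GC, 38.5%, and lies on chromosome 1 from 80264923 to 80340480. It was at 133, 91.9 and 147 CPM in WT and 157, 178 and 191 CPM in Ash1l+/-. As a log2 fold change the rise was 0.32 (SE 0.08, adjusted p = 0.0117 in edgeR), 0.33 with the length trend removed (adjusted p = 0.0161) and 0.09 with both removed (adjusted p = 0.473). Trip12, a ubiquitin ligase (16601 bases, chromosome 1 from 84721189 to 84840516), was at 154, 110 and 157 CPM in WT and 176, 185 and 195 CPM in Ash1l+/- (log2 fold change 0.26, SE 0.07, adjusted p = 0.0203 in edgeR). With the length trend removed it was at 0.01. Dyrk1a, a kinase encoded in the Down syndrome region (8251 bases), did not pass, at 0.10 (SE 0.10).

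Of the 7 genes of synapse, adhesion and guidance, 1 rose in the 5 libraries and 6 did not pass. The shares called higher were 9.39% of all genes and 22.6% of the longest quartile. Cntnap2 encodes Caspr2, an adhesion protein that holds potassium channels beside the nodes of myelinated axons. It spans 2245 kb on chromosome 6 from 45059357 to 47304213 and has an exon length of 10248 bases. It was at 198, 158 and 213 CPM in WT and 253, 228 and 258 CPM in Ash1l+/-. Cntnap2 rose by 0.26 on the log2 scale (SE 0.08, adjusted p = 0.0242 in edgeR), a value that went to -0.01 with both trends removed. Reln, a secreted guidance protein (23738 bases), was at 59.0, 50.7 and 54.1 CPM in WT and 66.8, 69.2 and 60.8 CPM in Ash1l+/- (0.22, adjusted p = 0.0808 in edgeR). Dscam, an adhesion molecule of neurite spacing (8800 bases), and Shank2, a postsynaptic scaffold (10768 bases), had log2 fold changes of 0.16 and 0.26 and did not pass. Shank2 ran from 4.18 to 7.78 CPM over the 6 libraries.

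Shank3, a postsynaptic scaffold whose loss from sensory neurons alters touch and pain sensing in mice, has the highest transcript GC of the set, 62.4%, and an exon length of 9189 bases. It was at 31.6, 5.30 and 26.3 CPM in WT and 27.2, 23.4 and 23.6 CPM in Ash1l+/-. Its log2 fold change was 0.23 (SE 0.59) with 6 libraries and -0.22 (SE 0.11, adjusted p = 0.172 in edgeR) with 5. It fell by 0.35 with the length trend removed (adjusted p = 0.0421 in edgeR) and stood at -0.01 (adjusted p = 0.981) with both removed. Nlgn2, the neuroligin of inhibitory synapses (5785 bases, transcript GC 60.7%), was at 152, 82.4 and 143 CPM in WT and 144, 123 and 120 CPM in Ash1l+/- (-0.19, SE 0.08, adjusted p = 0.123 in edgeR with 5 libraries). Without Ash1l+/- replicate 1 as well, both Shank3 (adjusted p = 0.0484 in edgeR) and Nlgn2 (0.00858) passed as lower.

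Nlgn3, a neuroligin encoded on the X chromosome (9271 bases), was at 20.8, 48.0 and 24.9 CPM in WT and 21.7, 24.5 and 25.2 CPM in Ash1l+/-. WT replicate 2 was above every other library here, and the log2 fold change went from -0.39 with 6 libraries to 0.06 (SE 0.11) with 5. In GENCODE M21 the gene Gm21986 is annotated on 41.2% of the exon bases of Nlgn3 on the same strand, and it had 5 to 16 reads per library. Of the other risk genes, Adnp and Chd2 alone share more than 10% of their exon bases with another gene, and 16 of the 32 share none. Adnp, Shank3 and Nlgn3 were chosen for full values after they were seen, as was the neighbour of Chd2. Chd8, Wac, Setd5 and Reln were also given in full outside the rules used for the rest.

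The calls in the 5 libraries depended on single libraries. With WT replicate 1 or WT replicate 3 also left out, 1 wild type remained, with its spread assumed to be that of the other group. Only effect sizes are therefore read from those fits here. Over the 5 fits that left out 1 more library, the log2 fold changes of the 9 genes all stayed above 0. The lowest was 0.21, for Cntnap2, and the highest 0.49, for Naa15. Without Ash1l+/- replicate 2 or 3, 6 of the 9 passed in each case, and without Ash1l+/- replicate 1 all 9 did, with Wac as a further rise. The number of all genes called also changed with the library left out, over a range given in the last section. That number was not matched here to each fit. Of 8 satellite glia markers, none at 0 in all libraries, 6 were above the mean of WT replicates 1 and 3 in every Ash1l+/- library. Their median log2 differences from that mean were 0.36, 0.31 and 0.28, and they summed to 1467 to 1532 CPM in Ash1l+/-, 1306 and 1343 CPM in WT replicates 1 and 3 and 2506 CPM in WT replicate 2. Despite that higher sum, 2 of the 8 were above the mean in WT replicate 2, and the median there was -0.45. In Ash1l+/- the 8 markers of myelinating Schwann cells were at -0.09, -0.36 and -0.26 by the same measure. They summed to 4081 to 4838 CPM in Ash1l+/- and 4876 and 5061 CPM in WT replicates 1 and 3. The 12 sensory neuron markers were at -0.05, 0.05 and 0.02. The part of cell composition in the risk gene values was not tested, and in bulk tissue fewer cells of a type and less RNA per cell cannot be told apart.

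Values were also read for 109 other autism risk genes, listed for comparison with the 32. In the 5 libraries 107 were tested, of which 38 rose, 5 fell and 64 did not pass, with a median log2 fold change of 0.20. Over all genes 9.39% were higher and 10.4% lower, and in the longest quartile 22.6% and 3.03%. After removal of both trends 1 of the 107 rose and 3 fell, with a median of 0.00, against 2.71% and 4.84% of all genes. With 6 libraries edgeR called none of 106. Among the 44 tested genes of chromatin and transcription, 16 rose and 1 fell. The largest rises were in Phip, a bromodomain protein (0.69, SE 0.10), Chd7, the remodeller of CHARGE syndrome (0.64, SE 0.17), and Zbtb20, a zinc finger repressor (0.54, SE 0.09), and the fall was in Ldb1, a LIM domain-binding cofactor (-0.47, SE 0.08). The exon length of Ldb1 is 3.58 kb, and that of Phip is 33.3 kb.

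Among the 33 tested genes of synapse, channel and adhesion, 13 rose and 2 fell. For this list and the next, the shares over all genes were 9.39% higher and 10.4% lower. In the longest quartile they were 22.6% and 3.03%. Gabrb2, a GABA-A receptor subunit, was at 14.5 ± 0.572 CPM (SD, n = 3) in Ash1l+/- and 8.05, 0.374 and 9.95 CPM in WT. Its log2 fold change was 0.69 (SE 0.14) and stayed at 0.51 with both trends removed (adjusted p = 0.0207 in edgeR), the only rise in the 109 genes that did. Pcdh19, a protocadherin, and Scn2a, a sodium channel gene, rose by 0.63 and 0.45 on the log2 scale, and Ap2s1, an endocytic adaptor subunit, and Nrxn2, a presynaptic neurexin, fell by 0.37 and 0.31. Among the 30 genes of signalling, cytoskeleton, RNA and protein control, 9 rose and 2 fell. Taok1, a kinase of microtubule dynamics, Ube3a, the ubiquitin ligase of Angelman syndrome, and Tanc2, a synaptic scaffold, rose by 0.55, 0.48 and 0.41 on the log2 scale. Tanc2 was at 86.5, 151 and 93.0 CPM in WT and 119 ± 6.50 CPM (SD, n = 3) in Ash1l+/-, so that WT replicate 2 was above the Ash1l+/- mean, and with 6 libraries its log2 fold change was 0.11. Eif3g, a translation initiation factor subunit, and Git1, a signalling scaffold, fell by 0.27 and 0.26. WT replicate 2 moved several of these values. Ap2s1 was at 183, 1960 and 173 CPM in WT and 137 ± 3.34 CPM (SD, n = 3) in Ash1l+/-, and its log2 fold change with 6 libraries was -2.49. With 6 libraries Eif3g was at -0.98, Git1 at -0.45, Ldb1 at -0.79, Gabrb2 at 1.23, Taok1 at 0.90 and Scn2a at 0.68, none past the threshold in edgeR. The 3 genes lower with both trends removed were Satb1 (-0.35), Cyfip1 (-0.28) and Tsc2 (-0.23).

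Ash1l itself had an exon length of 14838 bases and a log2 fold change of 0.22 (SE 0.08, adjusted p = 0.0593 in edgeR) with 5 libraries, close to the risk gene median of 0.21. With the length trend removed it was at -0.00. Its counts do not check the genotype labels, because no source used here gives the structure of the allele.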

How the data were processed

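The authors deposited raw read counts per gene and FPKM for 54532 genes in 6 libraries. The submitters' processing notes name GRCm38 (mm10), HISAT2 2.0.5 and featureCounts 1.5.0-p3, without parameters. Per the labels' protocols, Trizol was used for the RNA and a NEBNext Ultra kit, which as named does not mark strand, for the libraries, so that a read on 2 overlapping genes, on either strand, may count for the wrong one. The deposited FPKM equal the counts divided by the deposited gene length and by 1 size per library. That size was 0.75 times the total in WT replicate 2 and between 1.02 and 1.04 times it elsewhere. Gene length, in bases per gene, is another column of the deposited table and equals the exon bases of GENCODE M21 for 30 of the 32 genes.

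Counts were tested with edgeR 4.0.16 in R 4.3.3 (filterByExpr, TMM, quasi-likelihood test, genotype as the only term, Benjamini-Hochberg at 0.05 over all genes). SEs are the log2 fold change over the square root of F. For trend removal, a loess curve (span 0.3, values clipped at the outer percentiles 1 and 99) of each library's log2 CPM (prior count 2) deviation on gene length, then on the GC share of the longest GENCODE M21 transcript, entered as an offset; GC was found for 99.9% of the genes tested with 6 libraries. Alternatives were RLE factors, library totals, no count filter, DESeq2 1.42.0, a replicate block and leaving out each library. The code was tested on simulated counts with no trend removed and with the length trend removed. Removal of the GC trend was not simulated, nor was a library that stands apart like WT replicate 2. No 2 libraries agreed within sampling noise (lowest chi-square per degree of freedom 3.86). The depth, 17209294 to 20545722 counts, limits genes of few reads such as Tbr1. Adnp also has few reads, and its overlap with Gm20716 makes its level uncertain as well.

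The risk genes, gene lists, the comparison without WT replicate 2 and the trend removal were chosen with earlier results of these data known. Full values were given for genes past the threshold, the 3 highest and 3 lowest by mean FPKM, and the largest rise and fall with 6 libraries. Chd8, Wac, Setd5, Reln, Adnp, Shank3, Nlgn3 and the neighbour of Chd2 were given in full outside these rules. In each list of other risk genes at most 3 rises and 3 falls were named, by size. Gene names follow the count table, where each listed symbol occurs once.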

Additional observations from a re-analysis of the deposited data

How the results depend on the processing

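With 6 libraries the risk genes past the threshold numbered 0 under every alternative other than leaving out WT replicate 2, which gave 9, all higher; leaving out 1 library gave 0 to 9 risk genes and 0 to 3252 genes in all (0 to 1539 higher, 0 to 1713 lower). DESeq2 called 3 genes, 1 higher and 2 lower. Library totals moved the median log2 fold change of all genes to 0.13 and that of the risk genes to 0.45. With 5 libraries, RLE factors, library totals, no count filter and DESeq2 each left 9 risk genes higher and kept the direction of all 31. Removing the length trend left 4 risk genes (3 higher, 1 lower) and 900 higher genes in all; removing length and GC trends left 1 risk gene, higher, and 1237 genes, 444 higher and 793 lower. Leaving out 1 of the 5 libraries gave 2 to 12 risk genes (2 to 10 higher, 0 to 2 lower) and 796 to 4198 genes (287 to 1956 higher, 509 to 2242 lower).

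Directions turned mainly with trend removal. With 6 libraries and the length trend removed, log2 fold changes turned to -0.19 for Chd8, -0.13 for Arid1b, -0.25 for Foxp1, -0.065 for Ankrd11, -0.20 for Asxl3, -0.39 for Auts2, -0.35 for Kdm5b, -0.080 for Nlgn2, -0.37 for Reln, -0.0077 for Setd5, -0.15 for Trip12 and -0.41 for Tcf4. With GC removed too they were -0.23 for Chd8, -0.018 for Arid1b, -0.015 for Pogz, -0.075 for Dyrk1a, -0.45 for Foxp1, -0.37 for Asxl3, -0.20 for Auts2, -0.19 for Cntnap2, -0.11 for Kmt5b, -0.47 for Kdm5b, -0.0077 for Myt1l, -0.20 for Naa15, -0.32 for Reln, -0.030 for Setd5, -0.37 for Trip12 and -0.74 for Tcf4. With 5 libraries and the length trend removed they were -0.13 for Chd8, -0.070 for Arid1b, -0.010 for Pogz, -0.0016 for Dyrk1a, -0.067 for Ankrd11, -0.0056 for Asxl3, -0.24 for Auts2, -0.0029 for Kmt5b, -0.18 for Kdm5b, -0.039 for Med13l, -0.072 for Nlgn3, -0.057 for Reln and -0.059 for Setd5. With GC removed too they were -0.15 for Chd8, -0.027 for Pogz, -0.053 for Dyrk1a, -0.095 for Foxp1, -0.029 for Foxp2, -0.11 for Asxl3, -0.12 for Auts2, -0.0077 for Cntnap2, -0.085 for Kmt5b, -0.25 for Kdm5b, -0.0058 for Myt1l, 0.082 for Nlgn2, -0.095 for Nlgn3, -0.023 for Reln, -0.070 for Setd5, -0.13 for Trip12 and -0.11 for Tcf4. Foxp2 turned to 0.17 with library totals, 0.0085 with no filter and 0.033 with the replicate block, all with 6 libraries. The cause was not tested.

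Leaving out 1 library turned the direction of 5 genes with 6 libraries, over ranges of -0.22 to 0.64 for Shank3, -0.43 to 0.83 for Adnp, -0.21 to 0.38 for Foxp2, -0.19 to 0.20 for Nlgn2 and -0.61 to 0.056 for Nlgn3. With 5 libraries it turned 3, over -0.00063 to 0.20 for Dyrk1a, -0.072 to 0.18 for Nlgn3 and -0.019 to 0.075 for Auts2. With the replicate block 0 risk genes passed with 6 libraries and 12 with 5, all higher, which added Ankrd11, Kmt5b and Wac, with 1917 genes higher in all. For libraries of the same number, deviations from the group means had correlations of 0.00, -0.03 and 0.04 across genes. The WT mean includes WT replicate 2, which stood apart, so these values cannot tell whether the numbers pair the samples.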
